A study of Drosophila melanogaster with 8 samples.

Results

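Complex I (NADH:ubiquinone oxidoreductase) is the entry point of electrons from NADH into the mitochondrial respiratory chain. Most of its nuclear genes in Drosophila melanogaster carry names that begin with ND-, and every gene of the deposited table with such a name was taken here, which gave 37 of 13656 genes. Of these, 33 averaged at least 1 TPM over the libraries and were tested, and 4 did not. TPM is a transcript's share of the sequenced reads after division by its length, and the values of a gene's listed transcripts were summed. RNA was sequenced from heads of female flies, 5 days old, in which the driver Elav, active in neurons, expressed 1 of 4 constructs: PR36, a proline-arginine dipeptide repeat; (G4C2)36, the hexanucleotide repeat whose expansion in C9orf72 causes a motor neuron disease and a dementia; UPF1 RNAi, directed against the nonsense-mediated decay helicase Upf1; or PA36, a proline-alanine repeat that is the control in the labels. The series asks what the repeats and the loss of nonsense-mediated decay change, and PR36, (G4C2)36 and UPF1 RNAi are each set against PA36. Values were used from 2 libraries each of PR36, (G4C2)36 and PA36 and from 1 library of UPF1 RNAi, each genotype drawing on 40 heads in total.

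In the mitochondrial inner membrane, complex I passes electrons from NADH to ubiquinone and pumps protons, which ATP synthase then uses. Its peripheral arm reaches into the matrix and holds the flavin and the iron-sulfur clusters, and its membrane arm holds the proton pumps. The pumps and the other core subunits of the membrane arm are encoded by the mitochondrial genome. All remaining subunits are encoded in the nucleus and imported, and many accessory subunits are assembled around a conserved core. Neurons, photoreceptors and muscle, all present in a head, rely on this chain for most of their ATP. The 7 mitochondrial ND genes of the reference annotation were not listed in the table, so the values below describe nuclear subunits, and only those listed.

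The libraries were those of heads by their markers. Photoreceptor markers summed to between 33598 and 46133 TPM per library, neuron markers to between 898 and 1367 TPM, and testis markers to at most 0.860 TPM. Of the 8 testis markers only 3 were listed. The neuron sum was carried mainly by nSyb and Syt1, while brp, Syx1A and para lay below 1 TPM in some libraries. The depth is unknown, since TPM keep no read number, and the table accounts for 712972 to 877933 TPM of each library. Heat shock transcripts set 2 libraries apart: Hsp70Aa stood at 2019.9 and 6.77 TPM in the PR36 libraries, 153 and 155 TPM in those of (G4C2)36, 14.6 TPM in UPF1 RNAi, and 1448 and 4.93 TPM in those of PA36. Upf1, the target of the RNAi, stood at 18.6 and 19.6 TPM in the PR36 libraries, 18.2 and 16.0 TPM in those of (G4C2)36, 11.3 TPM in UPF1 RNAi, and 10.3 and 19.1 TPM in those of PA36, so UPF1 RNAi lay between the PA36 libraries and the targeted gene does not decide whether the label holds. In Hsp70Aa, replicate 1 of PR36 and replicate 1 of PA36 were high, and results are also given without these 2 libraries where they differ. No label says that replicates came from separate cultures, so the p-values reflect spread that may be technical only. The driver acts in neurons while whole heads were measured, and in such bulk RNA fewer cells of a type and less RNA per cell cannot be told apart.

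The complex I genes were abundant and lay within a narrow range of levels. Their mean over the 7 libraries had a median of 219 TPM over the 33 tested genes, against 18.7 TPM over all 9287 genes tested. A mean above 100 TPM was found for 32 of them and for 7.74% of the genes in the table, and 30 lay between 100 and 400 TPM. By role, the median of the mean TPM was 250.2 over the 7 core genes of the peripheral arm, 191 over the 7 accessory genes of that arm, 203 over the 7 accessory genes of the proximal membrane arm and 219 over the 11 of its distal part. Ordered by level, 8 of 32 neighbouring pairs differed by more than the SD of their difference over libraries. Most neighbours could therefore not be ranked. In the reference annotation 9 of the 37 genes lie on X, 8 each on 2L, 2R and 3L and 3 on 3R.

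**Figure D1:**
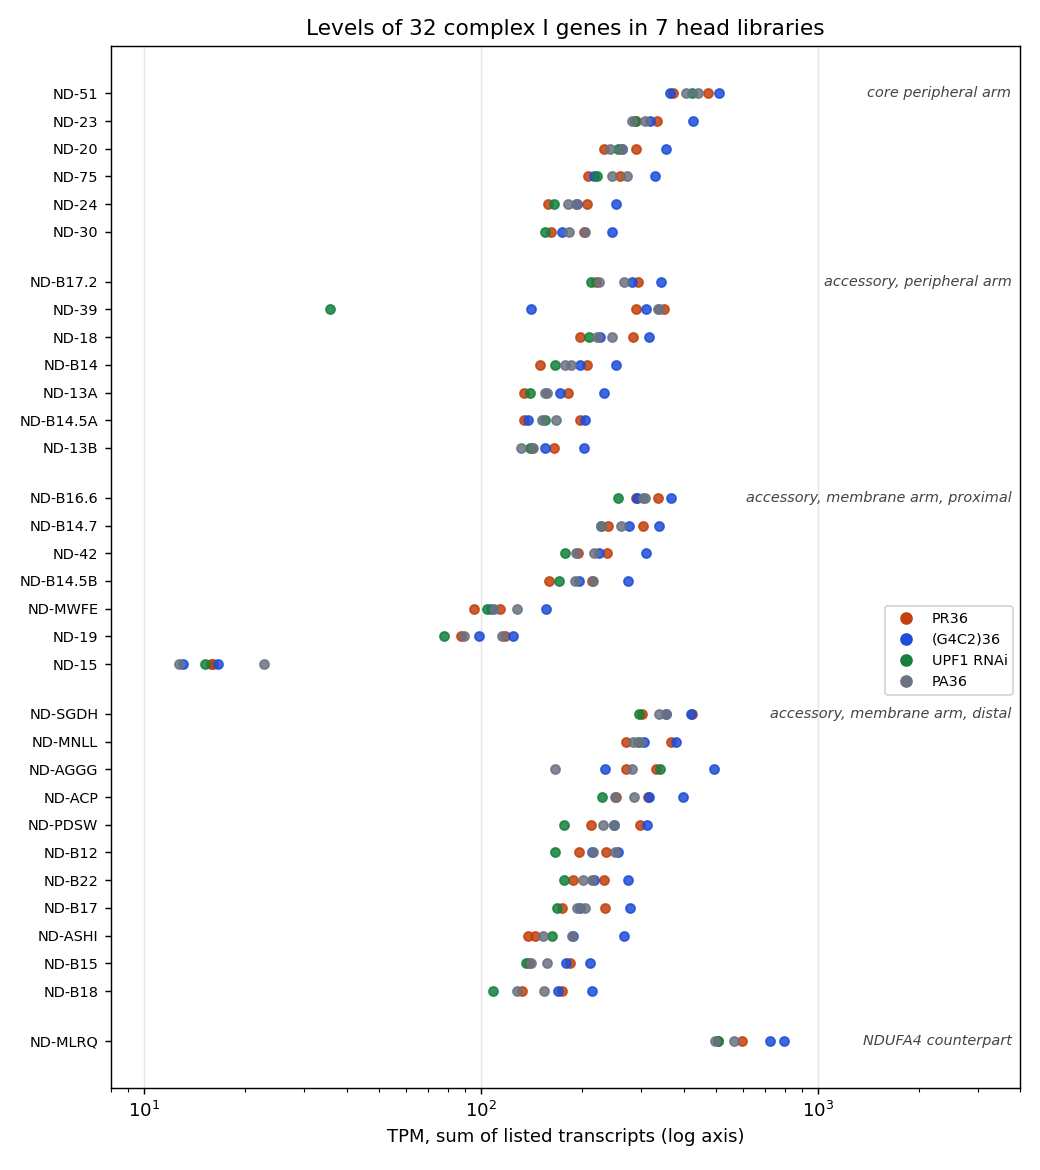
TPM (log axis) of 32 of the 33 tested complex I genes, 1 point per library, coloured by genotype and grouped by role. Most genes lie between 100 and 400 TPM with their 7 points close together, whereas ND-39 spreads widely and ND-15 lies near 16.0 TPM.

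The core of the peripheral arm carries electrons from NADH to ubiquinone. ND-51, the counterpart of human NDUFV1, which binds NADH and the flavin, stood at 372 and 473 TPM in the PR36 libraries, 509 and 364 TPM in those of (G4C2)36, 425 TPM in UPF1 RNAi, and 406 and 441 TPM in those of PA36. ND-75 (human NDUFS1), the large iron-sulfur subunit, stood at 209 and 259 TPM in the PR36 libraries, 329 and 217 TPM in those of (G4C2)36, 222 TPM in UPF1 RNAi, and 245 and 271 TPM in those of PA36. In both genes replicate 1 of (G4C2)36 was the highest library, and the PR36 and (G4C2)36 libraries overlapped those of PA36.

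ND-24 (human NDUFV2), the partner of ND-51 in the NADH-oxidizing module, stood at 158 and 207 TPM in the PR36 libraries, 252 and 194 TPM in those of (G4C2)36, 165 TPM in UPF1 RNAi, and 192 and 181 TPM in those of PA36. ND-30 (human NDUFS3), which helps to link this module to the quinone site, stood at 162 and 203 TPM in the PR36 libraries, 245 and 175 TPM in those of (G4C2)36, 156 TPM in UPF1 RNAi, and 205 and 183 TPM in those of PA36. Here too replicate 1 of (G4C2)36 was highest, and the UPF1 RNAi library lay below both PA36 libraries.

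ND-23 (human NDUFS8) and ND-20 (human NDUFS7) carry the last iron-sulfur clusters before ubiquinone. ND-23 stood at 289.8 and 333 TPM in the PR36 libraries, 426 and 318 TPM in those of (G4C2)36, 288 TPM in UPF1 RNAi, and 307 and 281 TPM in those of PA36. ND-20 stood at 233 and 289.5 TPM in the PR36 libraries, 355 and 262 TPM in those of (G4C2)36, 255 TPM in UPF1 RNAi, and 263 and 241 TPM in those of PA36. ND-23 lay above both PA36 libraries in both (G4C2)36 libraries, while for ND-20 replicate 2 of (G4C2)36 lay just below the higher PA36 library.

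Among the accessory genes, the highest and the lowest of each role frame the range. In the peripheral arm ND-B17.2 (human NDUFA12) stood at 219 and 293 TPM in the PR36 libraries, 343 and 281 TPM in those of (G4C2)36, 213 TPM in UPF1 RNAi, and 266 and 224 TPM in those of PA36. The lowest of that arm, ND-13B (human NDUFA5), stood at 142 and 165 TPM in the PR36 libraries, 202 and 156 TPM in those of (G4C2)36, 140.5 TPM in UPF1 RNAi, and 143 and 132 TPM in those of PA36. Both (G4C2)36 libraries lay above both PA36 libraries in these 2 genes. In the proximal membrane arm ND-B16.6 (human NDUFA13) stood at 289.7 and 337 TPM in the PR36 libraries, 367 and 290.4 TPM in those of (G4C2)36, 256 TPM in UPF1 RNAi, and 303 and 308 TPM in those of PA36, with (G4C2)36 libraries on both sides of PA36.

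The lowest of the tested genes was ND-15 (human NDUFS5), at 16.0 and 15.9 TPM in the PR36 libraries, 16.7 and 13.1 TPM in those of (G4C2)36, 15.2 TPM in UPF1 RNAi, and 22.8 and 12.7 TPM in those of PA36. Its lower level holds in all 7 libraries. The table lists its values with 2 reference transcripts missing, so its level is uncertain. Its reference gene model, from 114726 to 156030, overlaps other genes on both strands. The listed transcripts that span this model, FBtr0306542 and FBtr0330639, held at most 4.19% and 1.37% of the gene in any library. In the distal membrane arm ND-SGDH (human NDUFB5) was highest, at 302 and 423 TPM in the PR36 libraries, 420.2 and 355 TPM in those of (G4C2)36, 295 TPM in UPF1 RNAi, and 339 and 355 TPM in those of PA36. ND-B18 (human NDUFB7) was lowest there, at 133 and 175 TPM in the PR36 libraries, 214 and 169.9 TPM in those of (G4C2)36, 109 TPM in UPF1 RNAi, and 154 and 128 TPM in those of PA36. In ND-B18 the UPF1 RNAi library was the lowest of the 7, and both (G4C2)36 libraries lay above both PA36 libraries.

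ND-MLRQ was the most abundant gene of the set. Its human counterpart NDUFA4 was long counted in complex I and is now placed in cytochrome c oxidase. It stood at 507 and 598 TPM in the PR36 libraries, 797 and 724 TPM in those of (G4C2)36, 506 TPM in UPF1 RNAi, and 565 and 495 TPM in those of PA36. Both (G4C2)36 libraries exceeded the other 5, and its log2 fold change against PA36 was 0.52 (SE 0.20, adjusted p = 0.67) by limma, which did not pass.

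Paralogs of core and accessory genes were close to 0. The 4 genes below 1 TPM, ND-51L1, ND-51L2 and ND-B14.5AL among them, averaged between 0.0066 and 0.104 TPM, and together they summed to between 0.0773 and 0.312 TPM per library. Their namesakes stood far above them: ND-B14.5A (human NDUFA7), for example, was listed at 135 and 197 TPM in the PR36 libraries, 204 and 138 TPM in those of (G4C2)36, 156 TPM in UPF1 RNAi, and 152 and 167 TPM in those of PA36. Fold changes of the paralogs are not given, because they lie near 0 in every library. ND-20L and ND-24L, paralogs by name, and ND-B8, which is not, are in the reference annotation but were not listed in the table. Of the accessory genes drawn up for the peripheral arm, 7 of 8 were listed, and so were 7 of 8 for the proximal membrane arm.

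The complex I genes were high or low together in the same libraries. Their sum was 6647 and 8476 TPM in the PR36 libraries, 10055 and 7773 TPM in those of (G4C2)36, 6608 TPM in UPF1 RNAi, and 7465 and 7160.3 TPM in those of PA36. Replicate 1 of (G4C2)36 was highest and UPF1 RNAi and replicate 1 of PR36 were lowest, so the replicates of PR36 and of (G4C2)36 differed from each other by more than PR36 differed from PA36. As a share of the listed TPM the sum was lowest in replicate 1 of PR36, at 0.893%, and highest in replicate 1 of (G4C2)36, at 1.15%. Of the 33 genes, 30 had their highest value in replicate 1 of (G4C2)36.

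Compared with its own mean over the 7 libraries, the median gene of the set lay at -0.21 and 0.13 on the log2 scale in PR36, at 0.40 and 0.01 in (G4C2)36, at -0.22 in UPF1 RNAi, and at -0.01 and -0.08 in PA36. The same medians over all genes tested were -0.02 and 0.12 in PR36, 0.23 and -0.12 in (G4C2)36, 0.02 in UPF1 RNAi, and -0.14 and 0.01 in PA36. In replicate 2 of PR36, 31 of 33 genes lay above replicate 1, and in replicate 2 of (G4C2)36, 32 of 33 lay below replicate 1. Between the replicates of PR36 the median gene differed by 0.34, against 0.15 for all genes. Between those of (G4C2)36 it differed by -0.38, against -0.34. This spread within genotypes sets the error of every comparison below.

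**Figure D2:**
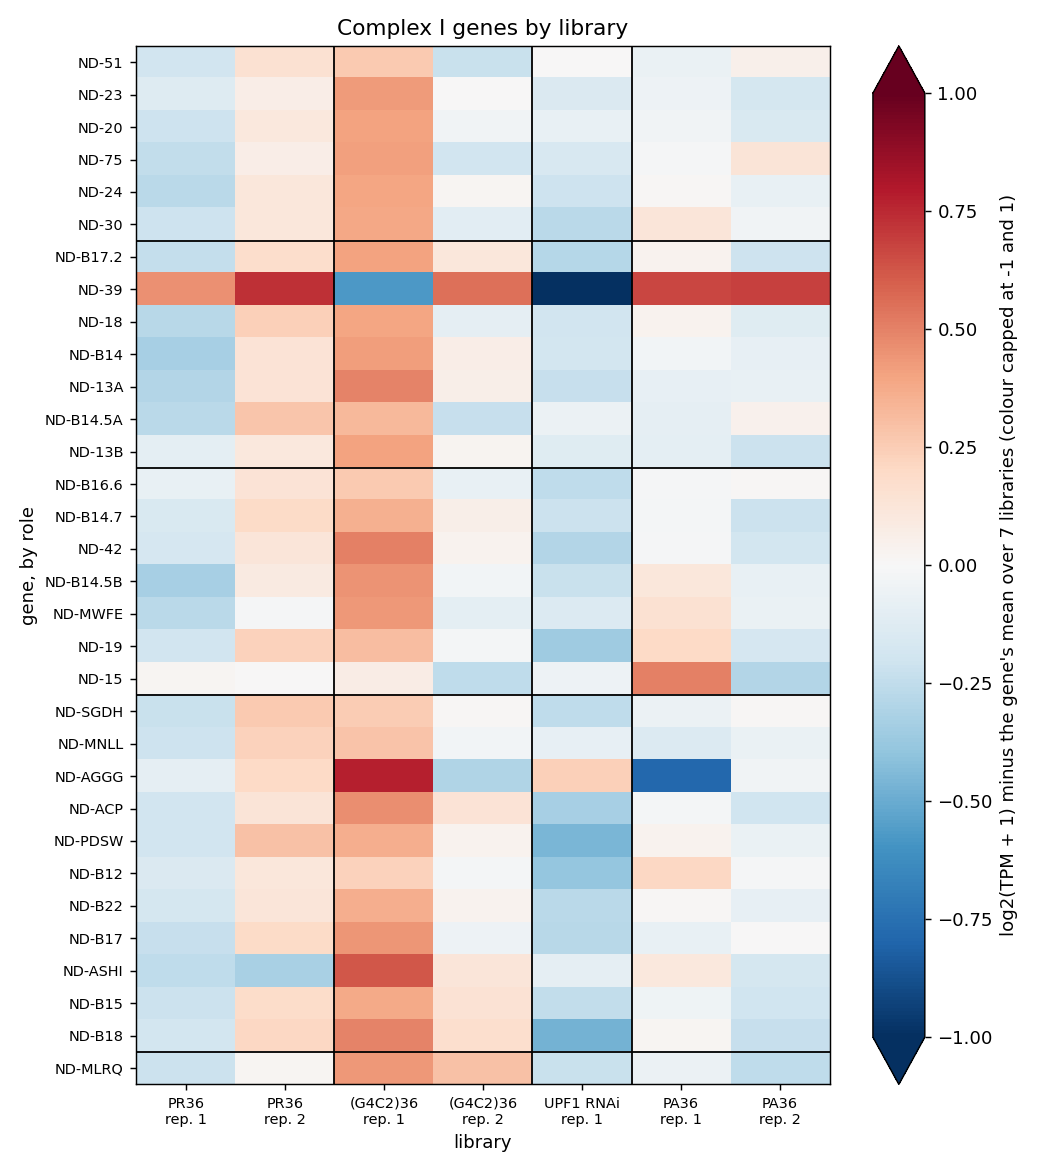
Heat map of log2(TPM + 1) of 32 of the 33 tested complex I genes minus the gene's mean over the 7 libraries, genes in rows by role and libraries in columns (colour capped at -1 and 1). Replicate 1 of (G4C2)36 is above the mean in 31 of these 32 genes and replicate 1 of PR36 in 2 of them, while ND-39 and ND-AGGG follow patterns of their own.

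The spread over the libraries was close to that of other genes. The median SD of log2(TPM + 1) was 0.24 in the set, 0.26 over all genes tested and 0.25 over the genes above 100 TPM. The ratio of the highest to the lowest library lay between 1.40 and 1.97 in 30 genes of the set, with a median of 1.59. It reached 9.81 in ND-39 and 2.96 in ND-AGGG. Both genes were singled out after their values were seen.

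The comparison of PR36 with PA36 called none of the 33 complex I genes (limma adjusted p below 0.05), beside 0.194% of all genes tested, and 1 had an unadjusted p below 0.05. The log2 fold changes, on the log2(TPM + 1) scale, had a median of 0.03 with 22 genes above 0 and 11 below, while the median of all genes was 0.13. Relative to that median, 4 genes lay above and 29 below. By role the medians were -0.01 in the core, 0.02 in the peripheral accessory, 0.00 in the proximal membrane and 0.07 in the distal membrane genes. The smallest value was -0.26 (SE 0.23, adjusted p = 0.996) in ND-ASHI (human NDUFB8), which stood at 145 and 138 TPM in the PR36 libraries, 267 and 188 TPM in those of (G4C2)36, 163 TPM in UPF1 RNAi, and 187 and 154 TPM in those of PA36. Both PR36 libraries lay below both PA36 libraries. ND-MWFE (human NDUFA1) at -0.18 (SE 0.25) and ND-75 at -0.15 (SE 0.25) were next. Toward the upper end were ND-AGGG (human NDUFB2) at 0.46 (SE 0.40) and ND-13B at 0.16 (SE 0.21). Both PR36 libraries lay above both PA36 libraries in 1 gene (27.0% of all genes did), and ND-ASHI was the 1 gene whose lay below (6.72%). The median rested on single libraries, and so did its place below that of all genes. It was -0.17 against 0.06 for all genes without replicate 2 of PR36, and -0.02 against 0.19 without replicate 2 of PA36. It lay above the median of all genes without replicate 1 of PR36 (by 0.0074), without replicate 1 of PA36 (0.08 against 0.04) and without the 2 heat shock libraries (0.24 against 0.12, with 31 of 33 genes above 0). After median-of-ratios rescaling, which brings the median of all genes to 0.01, it was -0.10 with 4 of 33 genes above 0.

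ND-MWFE, a small subunit at the foot of the membrane arm, stood at 95.5 and 114 TPM in the PR36 libraries, 156 and 107 TPM in those of (G4C2)36, 105 TPM in UPF1 RNAi, and 128 and 109.7 TPM in those of PA36. The 2 PR36 libraries spanned the lower PA36 library. The summed TPM averaged 7562 ± 1293 in PR36 and 7313 ± 215 in PA36 (SD, n = 2 each), a difference smaller than the spread (exact permutation test, two-sided p = 1.00, with 0.333 the smallest that 2 against 2 allow).

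In (G4C2)36 against PA36 most complex I genes had somewhat higher values, and none passed the test (beside 0.388% of all genes called). Of the 33 genes, 31 lay above 0 (23 after that rescaling), with a median of 0.23 against 0.13 for all genes, and 2 had an unadjusted p below 0.05. Relative to the median of all genes 23 lay above and 10 below. In 17 genes both (G4C2)36 libraries lay above both PA36 libraries, which is 51.5% of the set, beside 24.2% of all genes. ND-39 was the 1 gene with both below, beside 8.21% of all genes. Among the largest values were 0.65 (SE 0.40, adjusted p = 0.86) in ND-AGGG and that of ND-MLRQ above. The lowest were -0.69 (SE 0.35, adjusted p = 0.83) in ND-39, -0.19 (SE 0.31, adjusted p = 0.941) in ND-15 and 0.01 (SE 0.21, adjusted p = 0.997) in ND-B12 (human NDUFB3).

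By role, all 7 core genes and all 11 distal membrane genes lay above 0 in (G4C2)36, with medians of 0.24 and 0.23. The accessory genes of the peripheral arm had a median of 0.30 with 6 of 7 above 0, and the proximal membrane genes one of 0.13 with 6 of 7 above 0. The size of the median rested on the (G4C2)36 libraries: it was 0.06 without replicate 1 of (G4C2)36 and 0.43 without replicate 2, while that of all genes was -0.03 and 0.31. Its distance from the median of all genes, 0.10, rested on those of PA36: it was 0.24 without replicate 1 of PA36, as without the 2 heat shock libraries (0.28 against 0.04), and 0.0093 without replicate 2 of PA36. The sum averaged 8914 ± 1614 TPM in (G4C2)36 and 7313 ± 215 TPM in PA36 (SD, n = 2 each, exact permutation test, two-sided p = 0.333, the smallest possible). After median-of-ratios rescaling the sums were 8513 and 8492 TPM in (G4C2)36 and 8296 and 7127 TPM in PA36, so the (G4C2)36 libraries then lay close together and the PA36 libraries apart.

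UPF1 RNAi against PA36 gave 1 called gene, ND-39, which was lower, and the share called over all genes was 0.625%. With 27 of 33 genes below 0 (31 after rescaling), the median was -0.17 against 0.10 for all genes, and 31 lay below the median of all genes. Without replicate 1 of PA36, and equally without the 2 heat shock libraries, the median was -0.10 against 0.03 for all genes, and without replicate 2 of PA36 it was -0.20 against 0.16. The values below 0 were small apart from ND-39: ND-B12 had -0.48 (SE 0.26, adjusted p = 0.90) and ND-PDSW (human NDUFB10) -0.44 (SE 0.29, adjusted p = 0.956). Among those above 0 were ND-AGGG at 0.64 (SE 0.49, adjusted p = 0.958) and ND-13B at 0.03 (SE 0.26). All 7 proximal membrane genes lay below 0, with a median of -0.19, and 9 of 11 distal ones, with a median of -0.23. The UPF1 RNAi library lay below both PA36 libraries in 21 genes, 63.6% of the set, beside 25.9% of all genes, and above them in 2, ND-AGGG among them, beside 45.0% of all genes. With 1 library, the error is that of the other genotypes.

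ND-B12, a small membrane arm subunit, stood at 196 and 235 TPM in the PR36 libraries, 256 and 215 TPM in those of (G4C2)36, 166 TPM in UPF1 RNAi, and 251 and 216 TPM in those of PA36. ND-PDSW stood at 212 and 297 TPM in the PR36 libraries, 311 and 249 TPM in those of (G4C2)36, 176 TPM in UPF1 RNAi, and 248 and 231 TPM in those of PA36. In both, UPF1 RNAi was the lowest library. This library and replicate 1 of PR36 had the smallest sums of all, so the low values were shared with 1 library of another genotype.

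**Figure D3:**
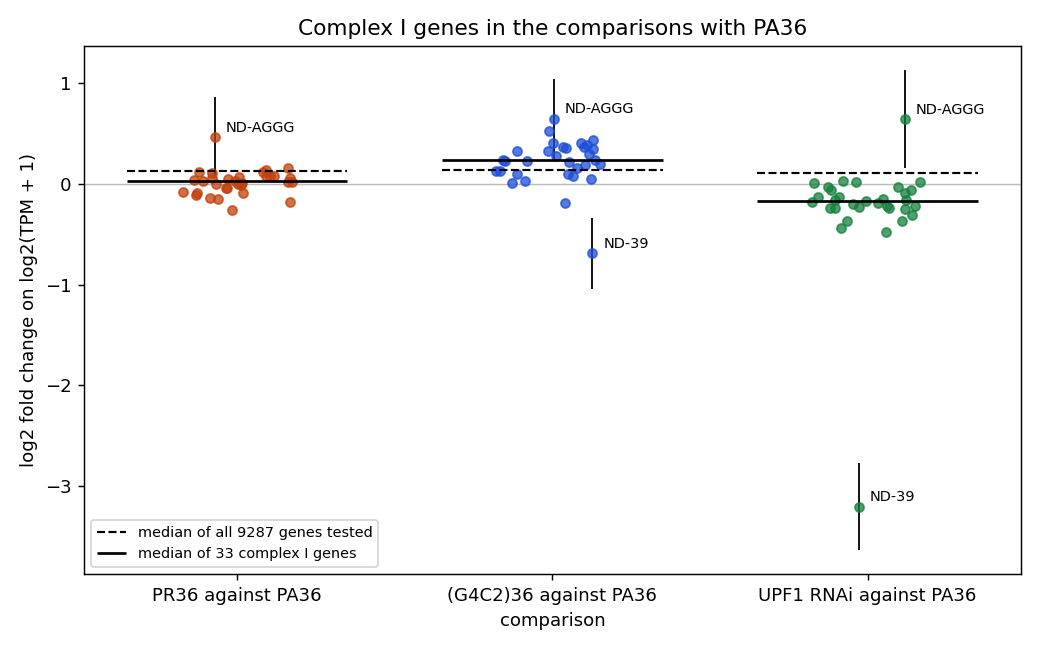
Log2 fold change on log2(TPM + 1) against PA36 of 32 of the 33 tested complex I genes (points; bars on the labelled genes are SE), with the median of all 33 (solid line) and of all genes tested (dashed line). Most points lie close to the medians, at 0.03, 0.23 and -0.17 in PR36, (G4C2)36 and UPF1 RNAi. After median-of-ratios rescaling these were -0.10, 0.10 and -0.27. ND-39 lies apart at -3.20 in UPF1 RNAi and -0.69 in (G4C2)36, and ND-AGGG at 0.46, 0.65 and 0.64 in the same order of genotypes. These ND-AGGG values share 1 low control library, PA36 replicate 1 (167 TPM, against 282 TPM in PA36 replicate 2).

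Between the other genotypes, PR36 lay below (G4C2)36 in 31 of 33 genes with a median of -0.21, against -0.0014 for all genes. None was called, beside 0.237% of all genes (3 had an unadjusted p below 0.05). Without replicate 1 of (G4C2)36 the median was -0.022 against 0.16 for all genes, with 15 of 33 genes above 0. Without the 2 heat shock libraries it was -0.075 against 0.07, with 12 above 0. Against UPF1 RNAi, PR36 was higher in 28 genes with a median of 0.16, against 0.02 for all genes. ND-39 was called there, with 3.12 (SE 0.43, adjusted p = 0.042), beside 0.431% of all genes. (G4C2)36 was above UPF1 RNAi in 32 genes with a median of 0.42, against 0.01 for all genes. None was called beside 0.581% of all genes (3 had an unadjusted p below 0.05), and ND-39 had 2.52 (SE 0.43, adjusted p = 0.076). Non-overlapping libraries were found for 0 genes higher (13.1% of all genes) and 4 lower (13.3%) in PR36 than in (G4C2)36, ND-ACP, ND-ASHI and ND-MLRQ among them. PR36 against UPF1 RNAi had 19 higher (37.4%) and 3 lower (31.3%), and (G4C2)36 against UPF1 RNAi had 27 higher (30.7%) and 0 lower (25.3%). These 3 comparisons test, gene by gene, the differences between the effects against PA36.

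ND-39 encodes the counterpart of human NDUFA9, an accessory subunit near the quinone site. It stood at 289.6 and 349.8 TPM in the PR36 libraries, 141 and 309 TPM in those of (G4C2)36, 35.7 TPM in UPF1 RNAi, and 335 and 339 TPM in those of PA36. UPF1 RNAi was the lowest by far, replicate 1 of (G4C2)36 was the next, and the other 5 libraries lay between 289.6 and 349.8 TPM. Its log2 fold change was -3.20 (SE 0.43, adjusted p = 0.032) in UPF1 RNAi, -0.69 (SE 0.35, adjusted p = 0.83) in (G4C2)36 and -0.08 (SE 0.35, adjusted p = 0.996) in PR36. The (G4C2)36 value was -0.13 without its replicate 1 and -1.25 without its replicate 2. The fall in UPF1 RNAi rests on 1 library. It was not called without the filter on low values (adjusted p = 0.13), after rescaling by median of ratios (0.14) or when only the 2 groups entered the fit (0.092).

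The gene lies on chromosome 3L from 20492082 to 20497084 on the plus strand (BDGP6). The table lists 1 transcript, FBtr0331564, from 20495347 to 20497084, and a second reference transcript, FBtr0078201, which starts at 20492082, is not analysed here. ND-39 is therefore among the 4 genes of the set without every reference transcript listed, and the second transcript is not part of its value. On the opposite strand ZnT77C overlaps the gene model by 2840 bases. Its level was low, between 1.51 and 8.78 TPM, and no source used here says whether the authors' counting was strand-aware. The part of the unlisted transcript in the low values was not tested.

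ND-AGGG, a small membrane arm subunit, switched between 2 listed transcripts. FBtr0113773, with 745 bases, stood at 1.87 and 2.62 TPM in the PR36 libraries, 0.212 and 231 TPM in those of (G4C2)36, 0.141 TPM in UPF1 RNAi, and 159 and 0.111 TPM in those of PA36. FBtr0339924, with 445 bases, stood at 268 and 329 TPM in the PR36 libraries, 494 and 2.79 TPM in those of (G4C2)36, 339 TPM in UPF1 RNAi, and 7.52 and 282 TPM in those of PA36. Replicate 2 of (G4C2)36 and replicate 1 of PA36 had almost all of the gene on the longer transcript and the 5 other libraries on the shorter, so the split ran within genotypes. The gene sum stood at 270.3 and 331 TPM in the PR36 libraries, 494 and 234 TPM in those of (G4C2)36, 339.5 TPM in UPF1 RNAi, and 167 and 282 TPM in those of PA36, and the 2 libraries on the longer transcript were the lowest. TPM are divided by transcript length, and the part of this split in the gene sums was not tested. The folds of ND-AGGG against PA36 share the low replicate 1 of PA36. On the log2 scale the gene lay at -0.79 from its own mean in that library and at -0.03 in replicate 2 of PA36. It lay at -0.09 and 0.20 in PR36, 0.77 and -0.30 in (G4C2)36 and 0.24 in UPF1 RNAi.

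ND-ACP, the mitochondrial acyl carrier protein, also had a transcript listed at 0 in some libraries, and an exact 0 can be a failed estimate. This transcript, FBtr0331864, was listed at 0 and 0 TPM in the PR36 libraries, 104 and 78.0 TPM in those of (G4C2)36, 54.7 TPM in UPF1 RNAi, and 60.4 and 0 TPM in those of PA36. The gene sum, at 252 and 314 TPM in the PR36 libraries, 398 and 316 TPM in those of (G4C2)36, 229 TPM in UPF1 RNAi, and 284 and 251 TPM in those of PA36, was highest in the 2 (G4C2)36 libraries, which also had the highest values of that transcript, while replicate 2 of PR36 had nearly the same sum with none of it listed. The leading transcript was the same in all 7 libraries for 22 of the 25 tested genes with more than 1 listed transcript, and it changed in 3, ND-ACP and ND-AGGG among them.

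**Figure D4:**
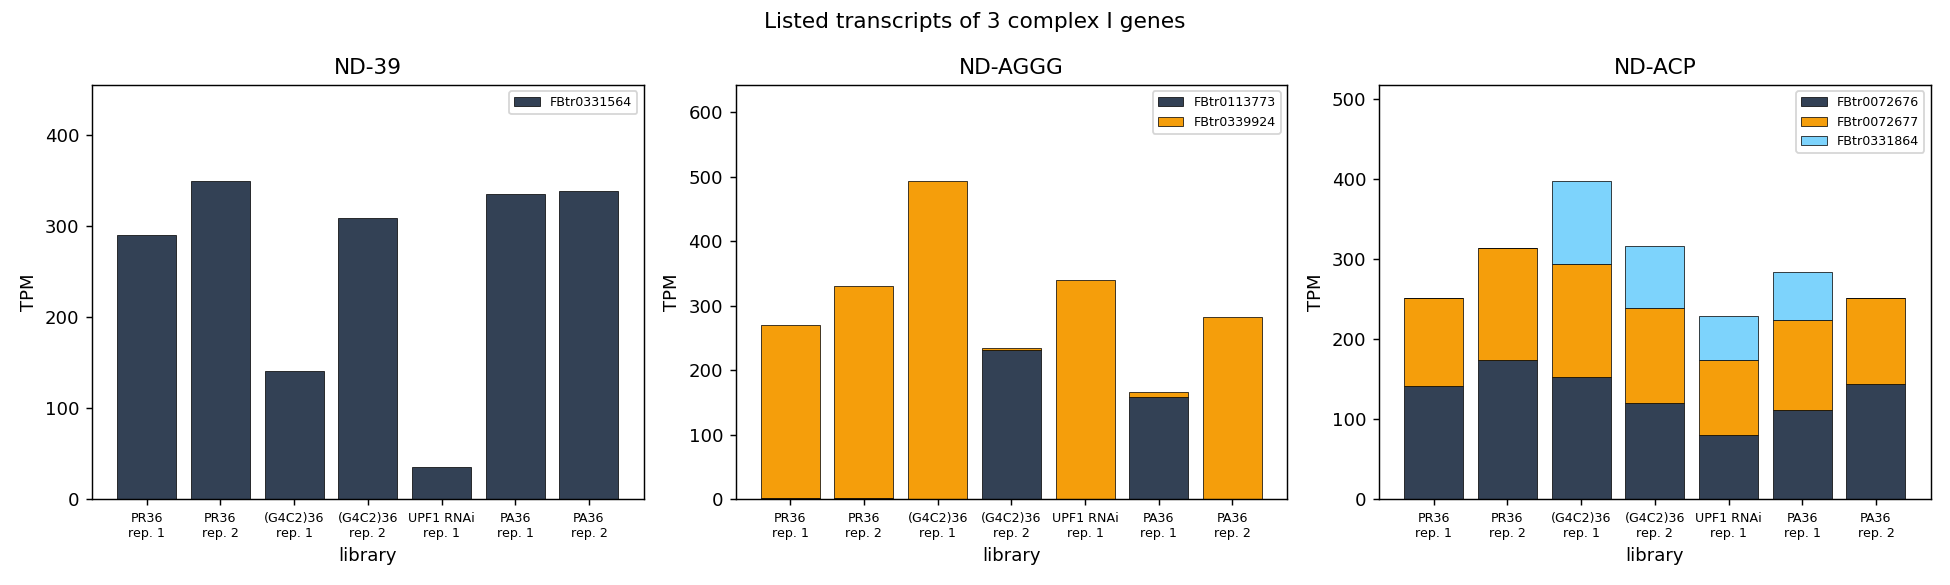
TPM of the listed transcripts of ND-39, ND-AGGG and ND-ACP in each library, stacked to the gene's sum. ND-AGGG switches between transcripts, and ND-39 has 1 listed transcript, at 35.7 TPM in UPF1 RNAi.

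The other respiratory complexes had medians in the same direction as complex I in (G4C2)36 and UPF1 RNAi. Complexes II to V were represented by 4, 9, 9 and 13 tested genes. In (G4C2)36 against PA36 their medians were 0.24, 0.32, 0.32 and 0.43, in UPF1 RNAi -0.12, -0.27, -0.14 and -0.23, and in PR36 0.00, 0.03, 0.04 and 0.01. By limma no gene of these 4 lists was called in these comparisons with PA36, and at an unadjusted p below 0.05 there were 2 of complex IV and 1 of complex V in (G4C2)36 and 0 in PR36 and UPF1 RNAi. The sum of complex I divided by that of complexes II to V was 0.356 and 0.369 in the PR36 libraries, 0.324 and 0.330 in those of (G4C2)36, 0.368 in UPF1 RNAi, and 0.345 and 0.375 in those of PA36. The (G4C2)36 libraries had the lowest ratios of all, yet the exact permutation test of (G4C2)36 against PA36 could not go below 0.333, which it gave (two-sided).

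Muscle markers lay in the same direction in those genotypes. Their summed level was 1805 and 1989 TPM in the PR36 libraries, 3116 and 2688 TPM in those of (G4C2)36, 1343 TPM in UPF1 RNAi, and 1813 and 1368 TPM in those of PA36. In (G4C2)36 all 8 muscle genes had a log2 fold change above 0, with a median of 0.74 and none called by limma (5 at an unadjusted p below 0.05), and in UPF1 RNAi 6 of 8 lay below 0, with a median of -0.29. Muscle is rich in mitochondria, and the part of muscle in the (G4C2)36 and UPF1 RNAi values of complex I was not tested. Of the fat body markers, all 6 lay above 0 in (G4C2)36, with a median of 1.09 and none called (3 at an unadjusted p below 0.05), and their summed level ranged from 38959 to 129316 TPM over the 7 libraries.

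Of the genes that act in complex I under other names, 3 were drawn up and all 3 were listed, each highest in replicate 1 of (G4C2)36. Other such genes were not examined. NP15.6, a subunit, stood at 268 and 313 TPM in the PR36 libraries, 406 and 315 TPM in those of (G4C2)36, 227 TPM in UPF1 RNAi, and 297 and 256 TPM in those of PA36. CIA30 and sicily, both needed for its assembly, stood lower. CIA30 was listed at 27.0 and 32.1 TPM in the PR36 libraries, 42.7 and 27.6 TPM in those of (G4C2)36, 24.4 TPM in UPF1 RNAi, and 32.7 and 31.2 TPM in those of PA36. The level of sicily lay between 6.78 and 18.8 TPM. By limma 0 of the 3 were called in the comparisons with PA36, and 0 had an unadjusted p below 0.05. In the wider lists, sesB, the ADP/ATP carrier of the inner membrane, stood at 2408 and 2693 TPM in the PR36 libraries, 3998 and 3030.0 TPM in those of (G4C2)36, 139 TPM in UPF1 RNAi, and 1039.9 and 1853 TPM in those of PA36. It was lower in UPF1 RNAi than in PA36 by limma (log2 fold change -3.31, SE 0.37, adjusted p = 0.014), the same direction as ND-39. Idh3b, a subunit of the NAD-dependent isocitrate dehydrogenase, was listed at 0 and 0 TPM in the PR36 libraries, 295 and 212 TPM in those of (G4C2)36, 0 TPM in UPF1 RNAi, and 0 and 0 TPM in those of PA36. It was called higher in (G4C2)36 by limma (adjusted p = 0.000192), against libraries that are all listed at 0, so no fold is given. No gene of the lists of mitochondrial biogenesis regulators (7 tested) and of mitochondrial chaperones and proteases (5 tested) was called against PA36, and 0 had an unadjusted p below 0.05.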

How the data were processed

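Per the labels, RNA was extracted with Trizol from female fly heads kept at 24 °C and 60% humidity. The authors deposited 1 table of TPM values for 26309 transcripts; the submitters' processing notes name bcl2fastq, HISAT2 2.1 and HISAT and the build BDGP6, while no source used here names the quantifier, annotation release or strand setting. The header holds 10 names for 11 cells per line. Names were read from the left, so 7 libraries have a column each, 1 unnamed value column was left out, and the second UPF1 RNAi library is not analysed here. All values by library depend on that reading.

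Transcript values were summed per gene. Positions and missing transcripts come from Ensembl release 115 (BDGP6), which holds 99.4% of the listed transcripts. Genes averaging at least 1 TPM (9287) were fitted as log2(TPM + 1) with limma 3.58.1 in R 4.3.3, 1 coefficient per genotype, a trended empirical Bayes prior and two-sided tests. There were 3 residual and 4.1 prior degrees of freedom. Calls are at a Benjamini-Hochberg adjusted p below 0.05 over all genes of a comparison, 6 comparisons in all, and fold changes of low genes are understated. With single or duplicate libraries, precision is limited by the spread between libraries, and no counting interval is possible. The fit was tested on simulated data. Against PA36, a log2 change of 1 was recovered in 16.7% of cases for PR36, 16.9% for (G4C2)36 and 4.63% for UPF1 RNAi. A change of 2 was recovered in 84.8%, 84.0% and 65.5%. Of the simulated calls, 6.29% were false for PR36, 7.43% for (G4C2)36 and 8.20% for UPF1 RNAi, each above the level of 0.05 used for calls. A gene that was not called can therefore still differ by a log2 change of 1. Sums per library were compared by exact permutation (Python 3.11.15).

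The complex I genes and the gene lists were chosen with earlier results of these data known. Genes are named by rule: core genes, paralogs with a namesake, the highest and lowest of each role, the 3 highest and 3 lowest fold changes against PA36, called genes and genes at 0. The rule also names 1 core gene that enters every count, sum and median and is not reported here, in the text or in the figures. Of other genes, those with transcripts that switched and those acting in complex I under other names were added after their values were seen. Alternatives covered the pseudocount, filter, rescaling, prior, groups fitted, replicate block, replicates left out and the heat shock libraries left out. Genes with every reference transcript listed were added after seeing the data.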

Additional observations from a re-analysis of the deposited data

How the results depend on the processing

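No alternative turned the median of the complex I genes against PA36 except in PR36, where leaving out PR36 replicate 2 or PA36 replicate 2 did so, and median-of-ratios rescaling, which moved the median of all genes by over 0.1 to about 0. That rescaling gave medians of -0.10 in PR36 (4 of 33 genes above 0), 0.10 in (G4C2)36 (23) and -0.27 in UPF1 RNAi (2), beside 0.01 for all genes in each. Over all genes tested, the deviations of replicate 1 correlated between genotypes at -0.08 (PR36 and (G4C2)36), 0.10 (PR36 and PA36) and -0.07 ((G4C2)36 and PA36). These correlations are small, but they cannot decide whether the replicate numbers pair the libraries. Replicate 1 of PR36 and replicate 1 of PA36 were both high in Hsp70Aa.

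With a replicate block, genes called were 33 in PR36 and 57 in (G4C2)36 against PA36, 44 in PR36 against (G4C2)36 and 87 in (G4C2)36 against UPF1 RNAi. The block called 1 complex I gene in (G4C2)36 against PA36 and 1 in (G4C2)36 against UPF1 RNAi (ND-39), and gave ND-13B -0.015 in UPF1 RNAi. With robust empirical Bayes, calls were 28 in PR36 and 61 in (G4C2)36 against PA36, 39 in PR36 against (G4C2)36, 72 in PR36 against UPF1 RNAi and 106 in (G4C2)36 against UPF1 RNAi, the last with 1 complex I gene (ND-39). Without the filter on low values they were 7 in PR36 against PA36, 65 in PR36 against UPF1 RNAi and 88 in (G4C2)36 against UPF1 RNAi, and at a mean of 5 TPM 11 in PR36 against PA36. With only the groups compared in the fit, calls were 90 in (G4C2)36 and 3 in UPF1 RNAi against PA36, 43 in PR36 against (G4C2)36, 12 in PR36 against UPF1 RNAi and 320 in (G4C2)36 against UPF1 RNAi. That fit called 1 complex I gene in (G4C2)36 against PA36 and 1 in (G4C2)36 against UPF1 RNAi (ND-39).

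ND-39 was the 1 complex I gene called in UPF1 RNAi against PA36, and 0 were called there without the filter, after rescaling, with only those groups or among genes with every transcript listed, which leaves ND-39 out. In PR36 against UPF1 RNAi, 0 were called under the same settings and without the trend. Rescaling gave ND-B12 -0.12 in (G4C2)36 and ND-13B -0.065 in UPF1 RNAi. After rescaling, the summed TPM became 8513 and 8492 in (G4C2)36 and 8296 and 7127 in PA36, and without ND-MLRQ the PA36 sums were 6900 and 6665.

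Without the 2 heat shock libraries, which leaves 1 library each of PR36 and PA36 assumed to vary like the others, calls were 191, 282 and 239 in PR36, (G4C2)36 and UPF1 RNAi against PA36. They were 234 in PR36 against (G4C2)36, 263 in PR36 against UPF1 RNAi and 331 in (G4C2)36 against UPF1 RNAi. Complex I genes called were 1 in (G4C2)36, 2 in UPF1 RNAi (ND-39 among them) and 1 in (G4C2)36 against UPF1 RNAi (ND-39). Medians were 0.24 in PR36 against PA36 and 0.37 in PR36 against UPF1 RNAi, ND-MWFE had 0.054 and ND-39 0.046 in PR36, and ND-15 0.20 in (G4C2)36. The cause of these moves was not tested.

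Leaving out each library in turn, genes called ranged from 14 to 60 in PR36, 26 to 86 in (G4C2)36 and 39 to 91 in UPF1 RNAi against PA36, from 21 to 73 in PR36 against (G4C2)36, 30 to 81 in PR36 against UPF1 RNAi and 38 to 105 in (G4C2)36 against UPF1 RNAi. Complex I genes called ranged from 0 to 1 in (G4C2)36 and 1 to 2 in UPF1 RNAi against PA36, and 0 to 1 in (G4C2)36 against UPF1 RNAi. Medians ranged from -0.17 (without PR36 replicate 2) to 0.21 (without PR36 replicate 1) in PR36, and from 0.057 to 0.43 in (G4C2)36. Between genotypes they ranged from -0.44 to -0.022 in PR36 against (G4C2)36, 0.020 to 0.37 in PR36 against UPF1 RNAi and 0.23 to 0.60 in (G4C2)36 against UPF1 RNAi. In UPF1 RNAi against PA36 they ranged from -0.20 to -0.10. The most folds that changed sign, of 33 against PA36, were 19 for PR36, 11 for (G4C2)36 and 7 for UPF1 RNAi. Of the folds printed above, those were ND-75 (-0.31 to 0.0051) and ND-39 (-0.22 to 0.053) in PR36, ND-15 (-0.59 to 0.20) and ND-B12 (-0.12 to 0.14) in (G4C2)36, and ND-13B (-0.025 to 0.090) in UPF1 RNAi. The unknown depth limits all low values.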
